A study of Saccharomyces cerevisiae with 6 samples.

Results

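The genes described here carry ammonium into the cell, fix it into glutamate and glutamine, and activate the genes of nitrogen catabolite repression in the budding yeast Saccharomyces cerevisiae. They were chosen by their systematic names in the deposited annotation. They are the ammonium permease genes MEP1 (YGR121C), MEP2 (YNL142W) and MEP3 (YPR138C), the glutamate dehydrogenase genes GDH1 (YOR375C), GDH3 (YAL062W) and GDH2 (YDL215C), the glutamine synthetase gene GLN1 (YPR035W), the glutamate synthase gene GLT1 (YDL171C) and the GATA activator genes GLN3 (YER040W) and GAT1 (YFL021W). All 10 genes were measured, each by 1 probe set, among the 5657 genes of the arrays.

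Total RNA came from CEN. PK 113-7D, a wild-type haploid laboratory strain grown aerobically in shake flasks, with BSA added to 3 cultures and none added to 3 control cultures. BSA usually stands for bovine serum albumin, although only the abbreviation appears in the labels. How much was added, to which medium and with which nitrogen source is not stated there, and the labels place sampling both at 48 h and in an early phase of growth on glucose. Each culture was read on 1 Affymetrix array, and within a group the labels name biological replicates. The question is how expression with BSA differed from expression without it.

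Yeast takes up ammonium through the Mep permeases, of which Mep2 also serves as a sensor for filamentous growth. Inside the cell, the NADP-dependent glutamate dehydrogenases Gdh1 and Gdh3 join ammonium to 2-oxoglutarate to make glutamate, and glutamine synthetase (Gln1) adds a further ammonium to make glutamine. Glutamate synthase (Glt1) returns glutamine and 2-oxoglutarate to glutamate, and the NAD-dependent enzyme Gdh2 releases ammonium from glutamate. Gln3 and Gat1 bind GATA motifs and switch on nitrogen genes when preferred nitrogen sources run short. On good nitrogen sources the TOR complex and Ure2 hold Gln3 and Gat1 back, which is known as nitrogen catabolite repression (NCR).

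With BSA, in the values as deposited, MEP3 and GDH3 rose 2-fold or more, GLT1 fell by more than 2-fold and GDH2 fell by less. MEP2, GAT1 and GLN1 rose by smaller amounts. MEP1, GDH1 and GLN3 did not pass the test. Of the 10 genes, 5 were thus called higher, where 28.3% of all genes were, and 2 were called lower, where 47.1% of all genes were (limma, Benjamini-Hochberg adjusted p under 0.05 over all 5657 genes). The groups did not overlap in these 7 genes, beside 79.5% of all genes, with 5 above (29.6% of all genes) and 2 below (49.9%). A change of at least 2-fold that passed was seen in 2 genes upward, beside 7.04% of all genes, and in 1 downward, beside 1.96%. In all, 75.4% of all genes passed in either direction, so a call by itself sets a gene apart little. The median log2 fold change of the 10 genes was 0.17, and that of all genes was -0.13.

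**Figure D1:**
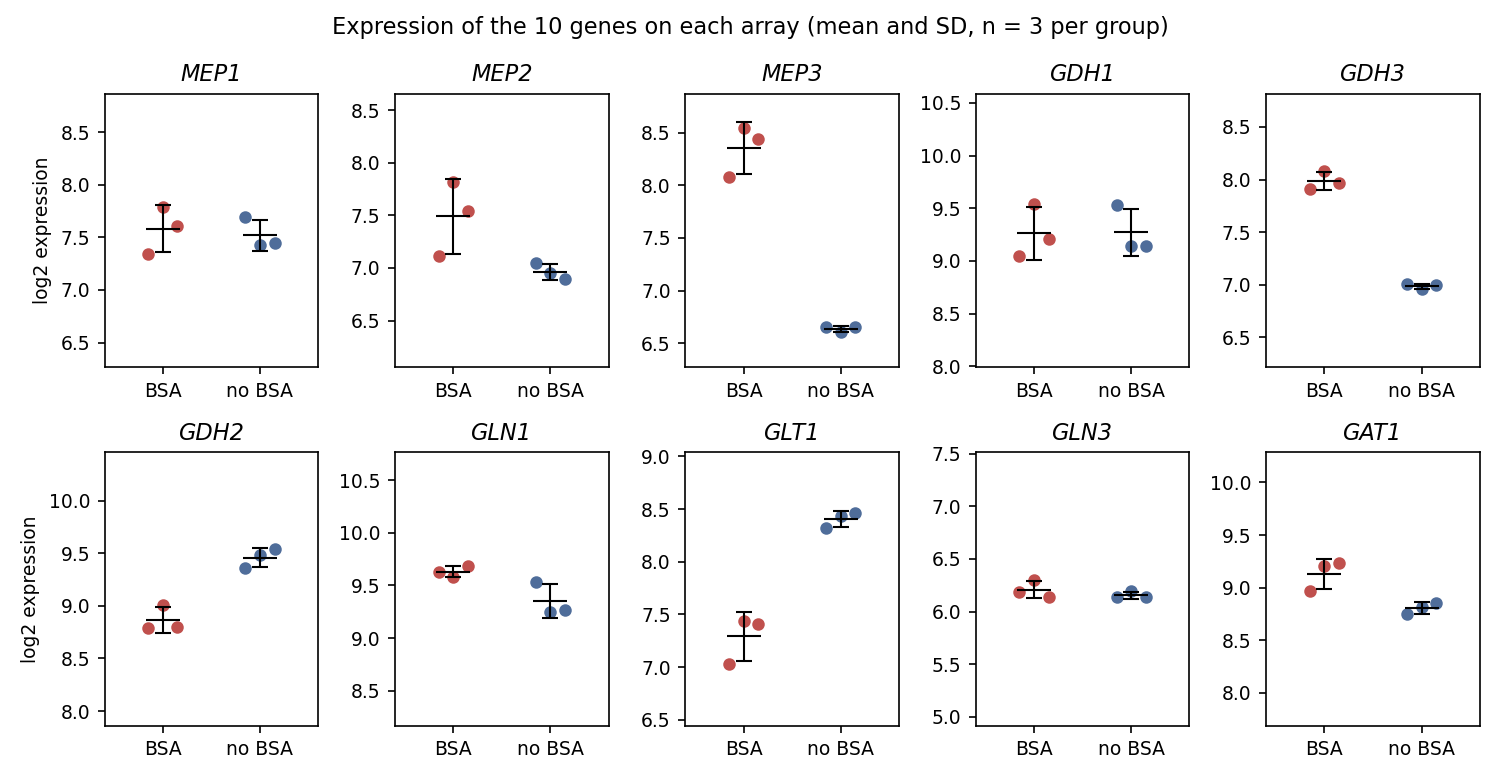
Log2 expression of each gene (vertical axes, each spanning the same width in log2 units) on the BSA arrays and the no BSA arrays, replicates 1 to 3 from left to right. Points are arrays, and black bars are means with SD (n = 3). The groups lie furthest apart in MEP3, GLT1 and GDH3, and overlap in MEP1, GDH1 and GLN3.

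Over all genes, 2 arrays of the same group differed with an SD of 0.0567 to 0.198 (log2), and 2 arrays of different groups with an SD of 0.625 to 0.732. The closest pair was no BSA replicates 2 and 3. With these counted as 1 sample, only the call of GLN1 changed among the 10 genes. The a-cell genes MFA1 and MFA2, which encode a-factor, were above the third quartile on all 6 arrays. The alpha-cell genes MF(ALPHA)1 and STE3 were below the first quartile on all 6, and the a-cell receptor gene STE2 lay between these quartiles. Another scaling of the arrays shifts the median of all genes by up to 0.13, so a change is also given relative to that median. On that scale the log2 fold changes were 1.85 for MEP3, 1.13 for GDH3, 0.66 for MEP2, 0.46 for GAT1 and 0.41 for GLN1. GLT1 stood at -0.98, short of 2-fold, and GDH2 at -0.46. MEP1, GLN3 and GDH1 stood at 0.20, 0.18 and 0.12. Of the called genes 37.6% were higher with the values as deposited, 50.2% when every array was centred by the median of its deviations (median-deviation centring), and 48.9% after cyclic loess. The arrays come from a single strain and a single condition pair, and with 3 cultures a group the number of arrays limits the precision.

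Of the 3 ammonium permease genes, MEP3 and MEP2 rose and MEP1 did not pass. MEP3, which encodes a permease of low affinity and high capacity, had log2 expression values of 8.08, 8.54 and 8.44 on the BSA arrays, against 6.65, 6.60 and 6.65 on the no BSA arrays. All BSA arrays stood above all no BSA arrays, and the no BSA values lay below the first quartile of their arrays. Its mean was 8.35 ± 0.24 with BSA and 6.64 ± 0.03 without BSA (SD, n = 3 each), a 3.29-fold rise. The log2 fold change was 1.72 ± 0.11 (SE; limma adjusted p = 1.22e-05), the 121st highest of 5657 genes, and 1.85 relative to the median gene. MEP3 passed under all 19 alternative settings, with log2 fold changes of 1.62 to 1.87.

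MEP2, the high-affinity permease gene, had 7.11, 7.82 and 7.54 on the BSA arrays, against 7.05, 6.95 and 6.90 on the no BSA arrays. The groups did not overlap, but BSA replicate 1 lay just above the highest no BSA array. The mean was 7.49 ± 0.36 with BSA and 6.96 ± 0.08 without BSA (SD, n = 3 each), a 1.44-fold rise. Its log2 fold change was 0.53 ± 0.16 (SE; limma adjusted p = 0.0176), with a 95% interval of 0.15 to 0.90. The call was lost without BSA replicate 3 (limma adjusted p = 0.0562) and with unmoderated variances in place of limma's (adjusted p = 0.0869).

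MEP1, the third permease gene, had 7.35, 7.79 and 7.61 with BSA, against 7.69, 7.42 and 7.44 without BSA. The groups overlapped. The log2 fold change was 0.06 ± 0.12 (SE; limma adjusted p = 0.652), and its 95% interval ran from -0.22 to 0.35. This interval does not reach the change of MEP3, but it overlaps the interval of MEP2 (0.15 to 0.90). MEP1 passed as higher only with array weights (0.19, limma adjusted p = 0.0195), 1 of 19 alternative settings.

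Within each array the expression of the permease genes can be set against each other as a change. The difference MEP3 minus MEP1 was larger with BSA by 1.66 (log2), and after the no BSA mean was set to 0 the BSA arrays stood at 1.61, 1.64 and 1.72 and the no BSA arrays at -0.16, 0.06 and 0.09. MEP2 minus MEP1 was larger with BSA by 0.47, and MEP2 minus MEP3 was smaller, with a change of -1.19. The groups did not overlap in any of the 3 differences, beside 79.5% of single genes that did not overlap. Each of these differences is fixed by the others.

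Of the NADP-dependent glutamate dehydrogenase genes, GDH3 rose and GDH1 did not pass. GDH3, which in yeast serves mainly on non-fermentable carbon sources, had 7.91, 8.08 and 7.97 on the BSA arrays, against 7.01, 6.96 and 7.00 on the no BSA arrays. The arrays of each group lay close together and the groups far apart. The mean was 7.99 ± 0.08 with BSA and 6.99 ± 0.03 without BSA (SD, n = 3 each), a 2.002-fold rise, with a log2 fold change of 1.001 ± 0.06 (SE; limma adjusted p = 6.82e-06). GDH3 passed under all 19 alternatives, at 0.96 to 1.15.

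GDH1, which encodes the main ammonium-fixing isoenzyme on glucose, had 9.04, 9.54 and 9.20 with BSA, against 9.53, 9.14 and 9.14 without BSA. The groups overlapped throughout, and its values were above the third quartile on all 6 arrays. The log2 fold change was -0.01 ± 0.15 (SE; limma adjusted p = 0.96), with a 95% interval of -0.36 to 0.34. GDH1 passed under none of the 19 alternatives, in which its value ran from -0.15 to 0.12. GDH1 was 1 of the 3 genes that differed least, and its interval is among the widest of the 10 genes. The difference GDH3 minus GDH1 was larger with BSA by 1.01 (log2), and the BSA arrays (0.83 to 1.16 above the no BSA mean) did not overlap the no BSA arrays (-0.24 to 0.14).

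GDH2, the NAD-dependent enzyme gene that works in the direction of glutamate breakdown, fell. It had 8.79, 9.01 and 8.80 on the BSA arrays, against 9.36, 9.48 and 9.54 on the no BSA arrays. All BSA arrays lay below all no BSA arrays. The mean was 8.86 ± 0.12 with BSA and 9.46 ± 0.09 without BSA (SD, n = 3 each), and it was thus 1.51-fold lower with BSA. The log2 fold change was -0.60 ± 0.08 (SE; limma adjusted p = 0.000262), or -0.46 relative to the median gene, and GDH2 passed under all 19 alternatives. GDH2 and GDH3 therefore moved in opposite directions, and the difference GDH2 minus GDH1 changed by -0.59.

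The genes of the glutamine cycle also changed in opposite directions, although the call of GLN1 was lost under 6 of 19 alternatives. GLT1, glutamate synthase, had 7.02, 7.44 and 7.41 on the BSA arrays, against 8.32, 8.43 and 8.46 on the no BSA arrays. The highest BSA array was clearly below the lowest no BSA array. The mean was 7.29 ± 0.23 with BSA and 8.40 ± 0.08 without BSA (SD, n = 3 each), 2.16-fold lower with BSA. The log2 fold change was -1.11 ± 0.11 (SE; limma adjusted p = 7.09e-05), the 60th lowest of 5657 genes, and it lay between -1.19 and -0.98 under the 19 alternatives, all of which it passed.

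GLN1, glutamine synthetase, had 9.63, 9.58 and 9.68 with BSA, against 9.54, 9.25 and 9.27 without BSA. The groups did not overlap, but no BSA replicate 1 came within a small distance of the lowest BSA array. The mean was 9.63 ± 0.05 with BSA and 9.35 ± 0.16 without BSA (SD, n = 3 each), a 1.21-fold rise, with a log2 fold change of 0.28 ± 0.08 (SE; limma adjusted p = 0.0165). The call was lost under 6 of 19 alternatives. These were the omission of BSA replicate 3 (adjusted p = 0.0583), of no BSA replicate 2 (adjusted p = 0.0631) or of no BSA replicate 3 (adjusted p = 0.0607), no BSA replicates 2 and 3 as 1 sample (adjusted p = 0.0615), unmoderated variances (adjusted p = 0.0623) and quantile normalization (adjusted p = 0.0603). GLN1 minus GLT1 was larger with BSA by 1.39 (log2), with BSA arrays 1.19 to 1.66 above the no BSA mean and no BSA arrays from -0.14 to 0.27.

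Of the activator genes, GAT1 rose and GLN3 did not pass. GAT1, which is itself a target of GATA factors, had 8.97, 9.20 and 9.23 on the BSA arrays, against 8.75, 8.81 and 8.86 on the no BSA arrays. Each BSA array was above each no BSA array. The mean was 9.13 ± 0.14 with BSA and 8.81 ± 0.05 without BSA (SD, n = 3 each), a 1.26-fold rise, with a log2 fold change of 0.33 ± 0.08 (SE; limma adjusted p = 0.00575). The call was lost after quantile normalization, in which the change was 0.16 (limma adjusted p = 0.1), and kept under the other 18 alternatives.

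GLN3 had 6.19, 6.30 and 6.14 with BSA, against 6.14, 6.19 and 6.14 without BSA. The groups overlapped, and the values were below the first quartile on all 6 arrays. The log2 fold change was 0.05 ± 0.06 (SE; limma adjusted p = 0.435), with a 95% interval of -0.08 to 0.18. GLN3 passed as higher after median-deviation centring (0.18, adjusted p = 0.0165) and after cyclic loess (0.19, adjusted p = 0.0144). Gln3 and Gat1 are known to be controlled largely by where the proteins lie in the cell, which arrays do not measure. GAT1 minus GLN3 was larger with BSA by 0.28, but only by 0.02 after quantile normalization and by 0.20 after cyclic loess.

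**Figure D2:**
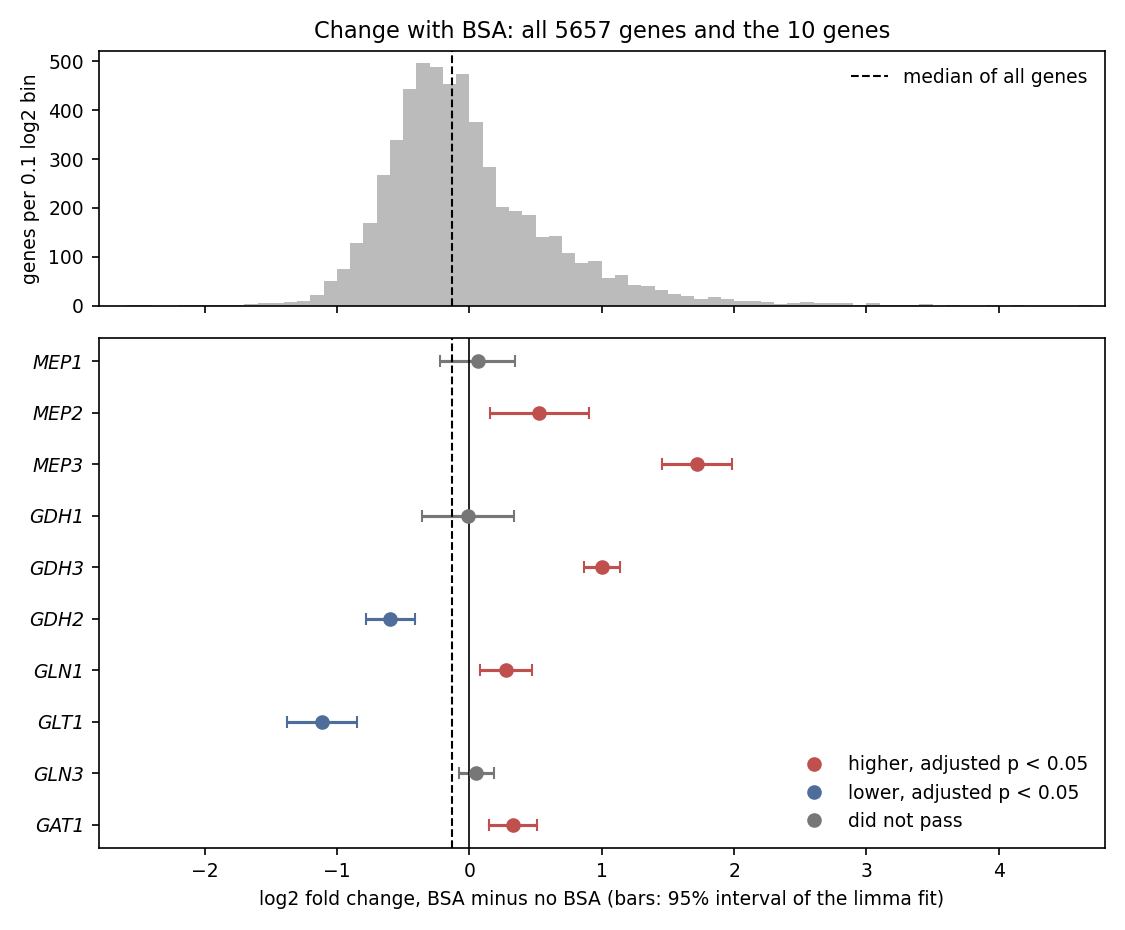
Above, the number of genes per bin of log2 fold change (BSA minus no BSA) among all 5657 genes. Below, the log2 fold change of each of the 10 genes with its 95% interval from the limma fit. MEP3 at 1.72 and GLT1 at -1.11 lie in the tails of all genes, and the intervals of MEP1, GDH1 and GLN3 include 0.

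In all, 7 differences between members were compared within arrays. With the values as deposited the groups did not overlap in any, beside 79.5% of single genes that did not overlap. An exact two-sided permutation test gave p = 0.1 for every one, and p = 0.1 after adjustment over the 7. That is the smallest p that 3 arrays against 3 allow, so none could pass 0.05. The groups lay close in GDH2 minus GDH1, with BSA replicate 1 at -0.44 and no BSA replicate 1 at -0.36. In GAT1 minus GLN3 the groups overlapped after quantile normalization (permutation p = 0.9) and after cyclic loess (permutation p = 0.2).

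**Figure D3:**
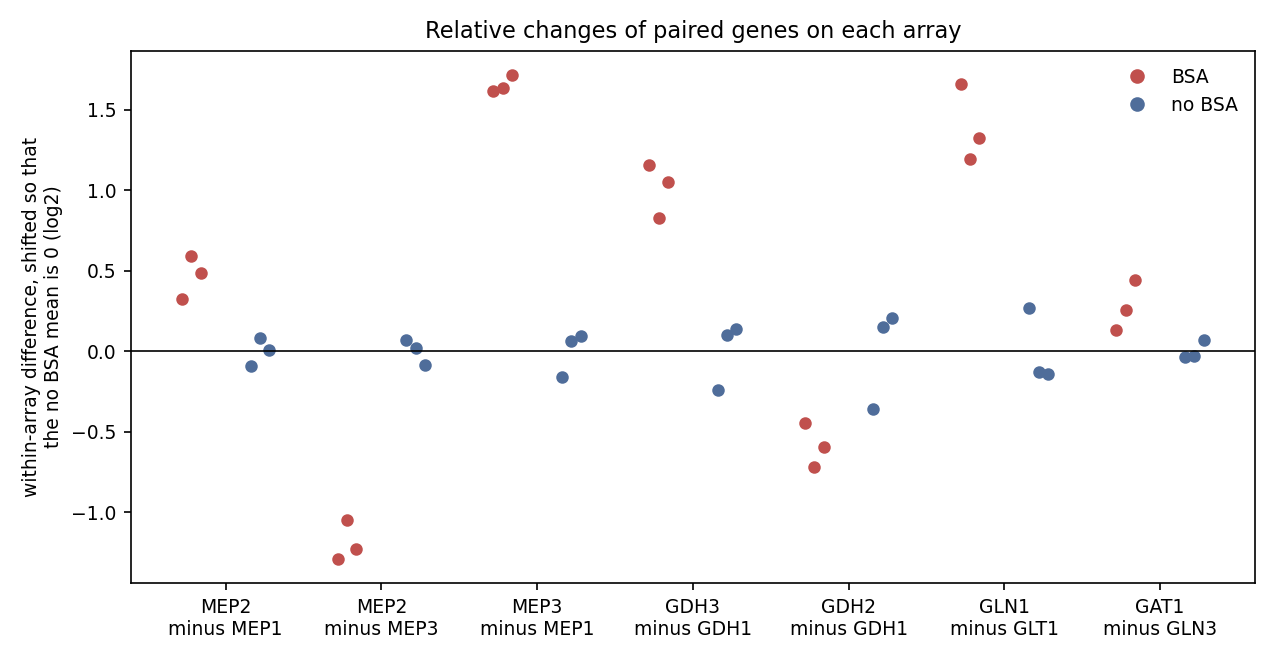
Within-array difference in log2 expression of 7 pairs of genes (horizontal axis), shifted so that the mean of the no BSA arrays is 0. Points are single arrays, BSA left and no BSA right in each pair. MEP3 minus MEP1 and GLN1 minus GLT1 moved furthest, by 1.66 and 1.39.

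The arrays within a group did not vary alike over these genes. BSA replicate 1 was the lowest of its group in 8 of the 10 genes, beside 47.7% of all genes, and BSA replicate 2 was the highest in 8, beside 36.7% of all genes. MEP2 shows this spread most, with a log2 fold change of 0.72 without BSA replicate 1 and 0.36 without BSA replicate 2. Among the no BSA arrays, replicate 1 stood apart in MEP1, GDH1 and GLN1, where it was the highest. Without no BSA replicate 1, the change of GLN1 was 0.37 and that of GDH1 was 0.12 (limma adjusted p = 0.446). The part of array quality in these values was not tested.

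Of 18 genes that control nitrogen catabolite repression and the permeases, 4 rose and 9 fell. These shares of 22.2% and 50% were near those of all genes (28.3% and 47.1%), with a median log2 fold change of -0.18, beside -0.13 for all genes. PAR32, whose product inhibits Mep1 and Mep3, was 1.99-fold lower with BSA, at 8.69 ± 0.07 against 9.67 ± 0.02 without BSA (SD, n = 3 each; limma adjusted p = 5.24e-06). NPR1, the kinase that keeps the Mep permeases active, rose by 0.65 ± 0.05 (log2, SE; limma adjusted p = 1.59e-05). TAP42, a regulator of phosphatases under TOR, changed by -0.46 ± 0.05 and NPR3, a part of the complex that inhibits TOR on poor nitrogen, by -0.44 ± 0.05. SIT4, a phosphatase that acts with Tap42, rose by 0.43 ± 0.05. UGA3, the activator of the genes for GABA use, rose by 0.64 ± 0.08.

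DAL80, which encodes a GATA repressor that competes with Gln3 and Gat1, rose by 0.49 ± 0.11 (SE; limma adjusted p = 0.00487), but was below the first quartile on all 6 arrays. URE2, which holds Gln3 in the cytoplasm, fell by 0.57 on the log2 scale, and GZF3, the other GATA repressor gene, fell by 0.37 at a dim signal, below the first quartile on 5 of 6 arrays. These last 2 genes were chosen after their values were seen. GCN4 and LEU3, activators of amino acid synthesis that in yeast also act on GDH1, had log2 fold changes of -0.27 ± 0.06 (limma adjusted p = 0.00394) and -0.08 ± 0.06 (limma adjusted p = 0.229), of which only that of GCN4 passed, and were chosen in the same way.

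The genes that NCR represses did not move as 1 group. Of 30 measured genes, 8 rose and 14 fell (26.7% and 46.7%), close to the shares of all genes, with a median of -0.18. The GABA genes UGA2 (2.62 ± 0.06, log2 fold change ± SE), UGA4 (2.42 ± 0.10) and UGA1 (1.83 ± 0.06), which encode the dehydrogenase, permease and transaminase of GABA use, rose. The allantoin permease gene DAL4 (-1.97 ± 0.08), the carboxypeptidase gene CPS1 (-1.01 ± 0.06) and APE1, a vacuolar aminopeptidase gene (-0.97 ± 0.08), fell. GAP1, the general amino acid permease gene that serves widely as a readout of NCR, had a mean of 6.70 with BSA and 6.84 without BSA and did not pass (limma adjusted p = 0.435). Its signal was below the first quartile on 4 of 6 arrays. GAP1 was chosen after its values were seen. The single probe set for asparaginase II stands for ASP3-1, and its near-identical copies were not told apart.

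Genes on the list for supply of 2-oxoglutarate, the carbon skeleton that Gdh1, Gdh3 and Glt1 use, were mostly higher. The list also holds the regulator genes RTG1, RTG2, RTG3 and MKS1. It was chosen with earlier results of these data known, so its excess over all genes is a description only. Of 16 genes, 12 rose and 2 fell (75% and 12.5%, beside 28.3% and 47.1% of all genes), and the list median of 0.38 lay 0.51 above that of all genes. Without no BSA replicate 2, without no BSA replicate 3 or with both as 1 sample, 10 rose, since IDP2 and PYC1 did not pass. DLD3, a gene of the retrograde response, had a mean of 9.80 with BSA and 8.89 without BSA, a log2 fold change of 0.91 ± 0.08 (SE; limma adjusted p = 3.56e-05). The mitochondrial citrate synthase gene CIT1 rose by 0.50 ± 0.05 and RTG1, a retrograde activator gene, by 1.43 ± 0.16. The RTG1 signal was dim without BSA, below the first quartile on all 3 no BSA arrays, and its BSA values ran from 7.00 to 7.70. MKS1, a repressor of the retrograde response on the same list, also rose (0.58 ± 0.07, named after its value was seen). The other RTG genes, RTG2 (limma adjusted p = 0.352) and RTG3 (limma adjusted p = 0.608), did not pass. CIT2 rose by 0.24 ± 0.06. After quantile normalization the calls of CIT2 (limma adjusted p = 0.148) and ACO1 (limma adjusted p = 0.0955) were lost. RTG2, RTG3, CIT2 and ACO1 were likewise named after their values were seen. The lower genes were PYC2, a pyruvate carboxylase gene (-0.52 ± 0.05), and ODC2, a carrier of 2-oxoglutarate out of mitochondria (-0.29 ± 0.10). The ODC2 call was lost under 8 of 19 alternatives, among them all 4 scalings and the omission of BSA replicate 2, BSA replicate 3 or no BSA replicate 1 (limma adjusted p up to 0.27).

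**Figure D4:**
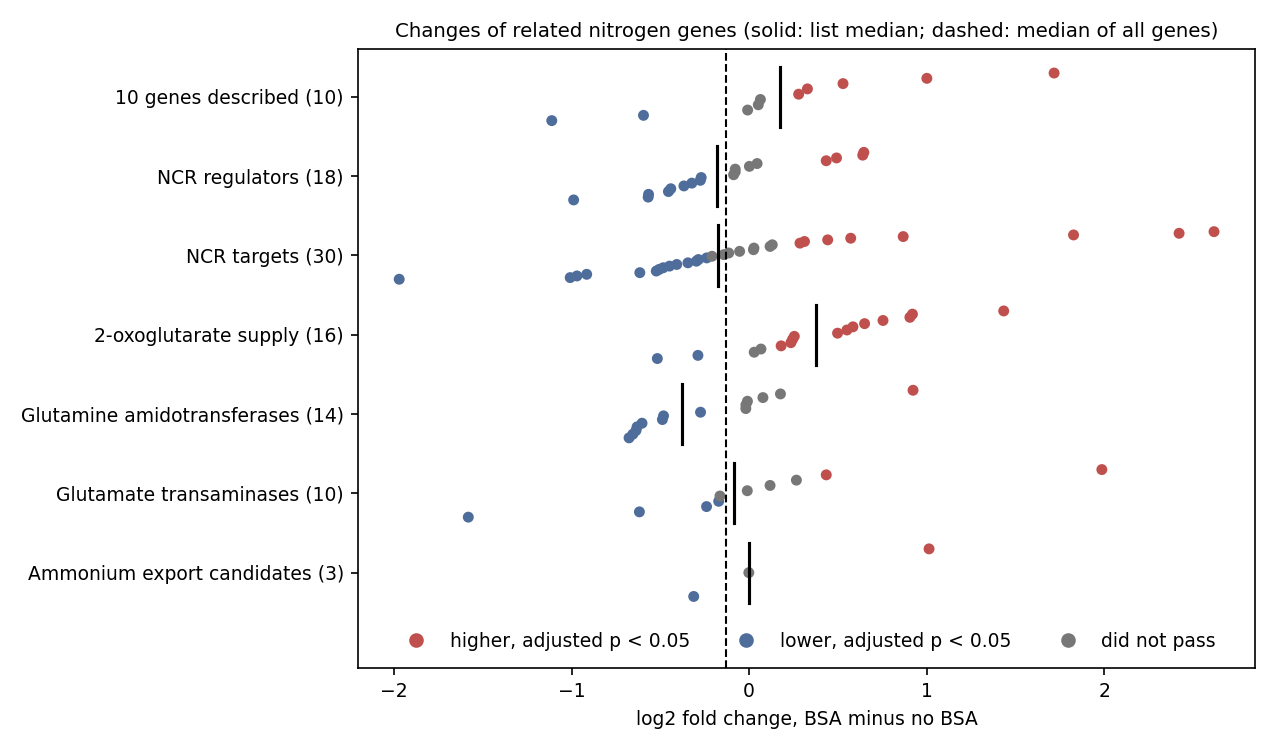
Log2 fold change (BSA minus no BSA, horizontal axis) of every measured gene of the 10 described and of 6 related lists, with the number measured in brackets. NCR is nitrogen catabolite repression, solid bars are list medians and the dashed line is the median of all genes. The median of 2-oxoglutarate supply (0.38) lies above and that of glutamine amidotransferases (-0.38) below it.

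Of 14 genes of glutamine amidotransferases, enzymes that spend glutamine, 1 rose and 8 fell. The share that rose was 7.14%, beside 28.3% of all genes, and the share that fell was 57.1%, not far from the 47.1% of all genes, and the list median was -0.38, which is -0.25 once the median of all genes is taken off. ASN2, an asparagine synthetase gene, was the riser, at 9.76 with BSA and 8.83 without BSA (0.92 ± 0.06, log2 fold change ± SE; limma adjusted p = 1.17e-05). GUA1, for GMP synthesis (-0.64 ± 0.05), HIS7, for histidine synthesis (-0.66 ± 0.06), and GFA1, for the amino sugars of the cell wall (-0.48 ± 0.05), fell. Array weights, 3 of the 4 scalings and the omission of no BSA replicate 1 gave 2 or 3 risers.

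Of 10 genes of transaminases that pass on the nitrogen of glutamate, 2 rose and 4 fell. These shares of 20% and 40% were near those of all genes (28.3% and 47.1%), with a median of -0.09. ARG8, the acetylornithine transaminase gene of arginine synthesis, had a mean of 9.70 with BSA and 7.72 without BSA (1.99 ± 0.06, log2 fold change ± SE; limma adjusted p = 9.89e-07). SER1, for serine synthesis, was called higher (0.43 ± 0.14), although its groups overlapped and the call was lost under 7 of 19 alternatives, among them the omission of BSA replicate 2, BSA replicate 3, no BSA replicate 2 or no BSA replicate 3, and the last 2 as 1 sample, each of which left 1 gene called higher. The aromatic transaminase genes ARO9 (-1.58 ± 0.22) and ARO8 (-0.62 ± 0.06) fell. AAT1, the mitochondrial aspartate transaminase gene (-0.24 ± 0.06), and BAT1, the mitochondrial branched-chain transaminase gene (-0.17 ± 0.05), were called lower, each in 16 of 19 alternatives. The AAT1 call was lost under 3 scalings, and the BAT1 call under 2 scalings and without BSA replicate 2.

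Of the 3 genes of the acetate and ammonium exporter family, 1 rose and 1 fell. ADY2, also called ATO1, rose, with 6.63 ± 0.29 with BSA and 5.62 ± 0.02 without BSA (SD, n = 3 each; limma adjusted p = 0.000264), with a dim signal below the first quartile on 5 of 6 arrays. ATO2 fell by 0.31 on the log2 scale (limma adjusted p = 0.00651), a call lost after median-deviation centring (adjusted p = 0.0558). ATO3 had means of 6.68 on both sides (limma adjusted p = 0.975).

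The genes whose 6 values, each centred on its own mean, lay nearest to MEP3 and to GLT1 were found by the root mean square difference over the 6 arrays. For MEP3 these were AMF1 (0.101, log2), described as a transporter gene, GTO1, a glutathione transferase gene (0.103), and MRS4, a mitochondrial iron carrier gene (0.114). AMF1 had a mean of 6.93 with BSA and 5.35 without BSA, a dim signal below the first quartile on every no BSA array and on BSA replicate 1. For GLT1 they were RPL7A (0.0341) and RPL37A (0.055), genes for proteins of the large ribosomal subunit, and WTM1 (0.0539), a gene for a nuclear regulator. RPL7A had a mean of 9.88 with BSA and 11.02 without BSA, a log2 fold change of -1.14. Over 6 arrays in 2 groups, such likeness mostly measures an equal change.

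In the reference gene table of assembly R64, GLT1 lies on chromosome IV between PAR32 and UGA3, with GLT1 and UGA3 transcribed away from each other. GLT1 and PAR32 were lower with BSA (-1.11 and -0.99), whereas UGA3 was higher (0.64). GDH3 lies on chromosome I beside BDH2, a putative alcohol dehydrogenase gene, which had a mean of 10.05 with BSA and 7.04 without BSA (3.01 ± 0.09, log2 fold change ± SE; limma adjusted p = 9.29e-07). GDH1 lies on chromosome XV beside the aldehyde dehydrogenase gene ALD4, which fell by 1.05 on the log2 scale, while GDH1 itself did not pass. These neighbours were chosen after their values were seen.

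**Figure D5:**
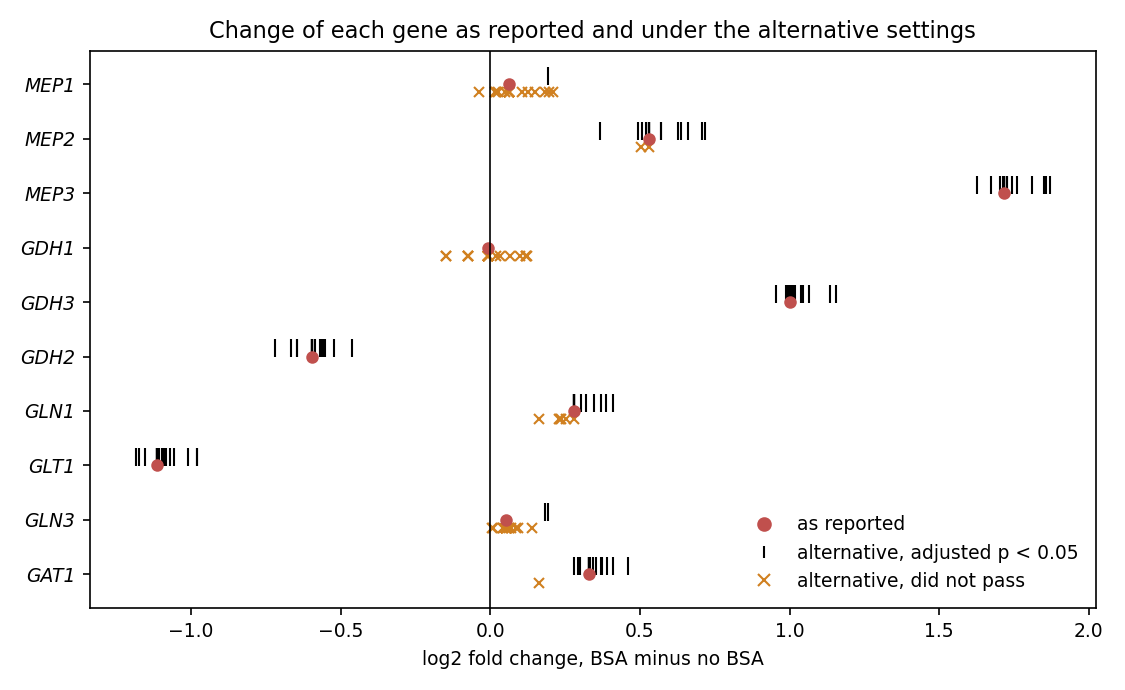
Log2 fold change (BSA minus no BSA) of each gene as reported (circles) and under the alternative settings, which passed (bars) or did not pass (crosses) an adjusted p of 0.05. MEP3, GDH3, GDH2 and GLT1 passed throughout, and GLN1 did not pass under 6 alternatives.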

How the data were processed

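Total RNA of 6 cultures was hybridised to Affymetrix yeast arrays. The deposited table holds the authors' log2 expression values for 5705 probe sets. PLIER and R 2.10.1 are named for it, per the submitters' processing notes, which do not say which did what. Background correction and normalization between arrays are not stated, and base 2 is inferred from the values' range. A deposited annotation gives an ORF name (a measure of kind "other", without a unit) per probe set, and symbols came from the gene table of assembly R64.

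Where a gene had several probe sets, the one with the highest mean was kept, which left 5657 genes. BSA was compared with no BSA in limma 3.58.1 (R 4.3.3), with Benjamini-Hochberg adjustment over all genes and a threshold of 0.05. Differences between members within arrays were tested by exact permutation (scipy 1.17.1). The 19 alternatives of the fit were a replicate block, a trended or robust prior, array weights, unmoderated variances, 4 scalings (quantile, median, median deviation, cyclic loess), omission of the dimmest 25% of genes, other uses of probe sets, each array left out, and no BSA replicates 2 and 3 as 1 sample. The fit was also run on simulated data in which few genes changed, all upward, with independent noise. In the real data 75.4% of genes passed, in both directions, so that run cannot check the calls made here. Named genes were the 10 members, the 3 genes with the smallest p per direction of each of 6 lists, all genes of counts of 5 or fewer, and the 3 nearest genes to the 2 members with the largest change. Members and lists were chosen with earlier results of these data known. P-values measure the spread between these cultures.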

Additional observations from a re-analysis of the deposited data

How the results depend on the processing

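MEP3, GDH3, GDH2 and GLT1 kept their direction and passed under all 19 alternatives of the fit, and GDH1 passed under none. With unmoderated variances, MEP2 (0.53, adjusted p = 0.0869) and GLN1 (0.28, adjusted p = 0.0623) did not pass. After quantile normalization, GLN1 (0.16, adjusted p = 0.0603) and GAT1 (0.16, adjusted p = 0.1) did not pass, and with no BSA replicates 2 and 3 as 1 sample GLN1 did not (0.23, adjusted p = 0.0615). MEP1 passed with array weights (0.19), and GLN3 after median-deviation centring (0.18) and after cyclic loess (0.19). With 1 array left out, log2 fold changes ran from 0.36 to 0.72 for MEP2, from 0.23 to 0.37 for GLN1, and from -0.04 to 0.18 for MEP1. The count of members called higher was 5 as deposited, beside 1603 of all 5657 genes. With 1 array left out it was 3 to 5, beside 1453 to 1597 of all genes. It was 3 with unmoderated variances and 3 after quantile normalization, beside 1455 and 1694 of all genes. The same count was 6 with array weights, after median-deviation centring and after cyclic loess, where 1752, 2074 and 1986 of all genes were higher. The member count was 3 at an adjusted p under 0.01. At a change of at least 2-fold, 2 members were higher and 1 was lower, beside 7.04% and 1.96% of all genes. The cause of these shifts was not tested.

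Same-numbered arrays deviated from their group means with correlations of 0.10, 0.02 and 0.04, so the numbers are not shown to pair the cultures. With the replicate block, 5 members rose and 2 fell, and 4266 genes passed, against 4268 without the block. Not every array correlated best with its own number.

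Counts of genes called in the related lists, over the alternatives at the same threshold, ran from 10 to 14 higher and 1 to 2 lower for 2-oxoglutarate supply, from 1 to 3 higher and 7 to 8 lower for glutamine amidotransferases, from 7 to 11 higher and 10 to 15 lower for NCR targets, from 3 to 5 higher and 7 to 12 lower for NCR regulators, from 1 to 4 higher and 2 to 4 lower for transaminases, and from 0 to 2 higher and 0 to 1 lower for the exporters. The lowest counts of NCR targets lower, NCR regulators higher and exporters higher came from leaving out the dimmest 25% of genes. That setting kept only 22, 15 and 1 genes of these lists, so these counts reflect genes not tested. With 1 array left out, 13 to 15 NCR targets were lower. GAT1 minus GLN3 was 0.02 after quantile normalization. Of the 10 genes, GLN3 was dim on all 6 arrays. Of the other genes described, DAL80, GZF3, GAP1, ADY2, ATO3, PUT4 and AMF1 were below the first quartile on 4 or more arrays, which limits what can be said of them. With no BSA replicates 2 and 3 as 1 sample, the calls of IDP2, PYC1, SER1, PUT1 and PUT4 were lost.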
